A study of Mus musculus with 6 samples.

Results

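The growth hormone signalling and IGF axis of mouse liver was followed through 10 listed genes: the receptor gene Ghr, the kinase gene Jak2, the transcription factor genes Stat5a and Stat5b, the feedback inhibitor genes Socs2, Cish and Socs3, and the output genes Igf1, Igfals and Egfr. The members were listed by name, with earlier results of these data known, and all 10 were measured among 19938 genes tested. Each gene was read from 1 Affymetrix probe set, a group of short probes for a transcript, that is annotated to that gene alone and has the highest mean over the arrays. Liver RNA of male C57BL/6 mice, labelled 6 weeks old and given 1 week to acclimatize on chow, was hybridised to 6 Mouse Gene 1.0 ST arrays. In the LE group (3 arrays) each 100 g of chow carried 100 mg of lovastatin and 21 mg of ezetimibe. In the CH group (3 arrays) the chow carried 1% cholesterol by weight. Lovastatin inhibits the rate-limiting enzyme of cholesterol synthesis and ezetimibe blocks intestinal cholesterol uptake. The comparison therefore sets a diet that limits cholesterol against one that supplies it. Mice on plain chow, a group described in the treatment protocol text, are not among the 6 samples, so neither diet can be set against chow. The time on the diets is not given in the sources used here.

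Growth hormone is released by the pituitary in pulses and binds its receptor on hepatocytes. The bound receptor activates the kinase JAK2, which phosphorylates STAT5A and STAT5B, and these enter the nucleus and bind DNA at the sequence TTCNNNGAA. In liver they drive Igf1, Igfals, Socs2 and Cish. SOCS2 and CISH then damp the receptor, so their transcripts are often read as a sign of recent signalling. IGFALS, the acid labile subunit, joins IGF1 and an IGF binding protein in the complex that carries IGF1 in plasma. In mice the pulsed, male pattern of growth hormone also maintains the sex difference in liver gene expression.

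Of the 10 genes, Socs2, Igfals, Egfr and Ghr were lower with lovastatin and ezetimibe, and Cish was higher. Socs2 fell to 45.5% of its level in CH livers, whereas Cish, the other STAT5-induced inhibitor, rose 1.41-fold. Igf1, Jak2, Stat5a, Stat5b and Socs3 did not pass the test. The members called, 5 of 10, stand beside 12.1% of all genes tested. By direction, 4 of the 10 were called lower beside 5.08% of all genes, and 1 was called higher beside 7.01%. The median difference of the members was -0.06 on the log2 scale, against 0.00 over all genes. A gene was called at a Benjamini-Hochberg adjusted p below 0.05 in limma, a linear model fitted to all genes. Levels are log2(intensity + 1), differences are LE minus CH of these levels, SE is the standard error from limma, and n = 3 arrays per group throughout.

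**Figure D1:**
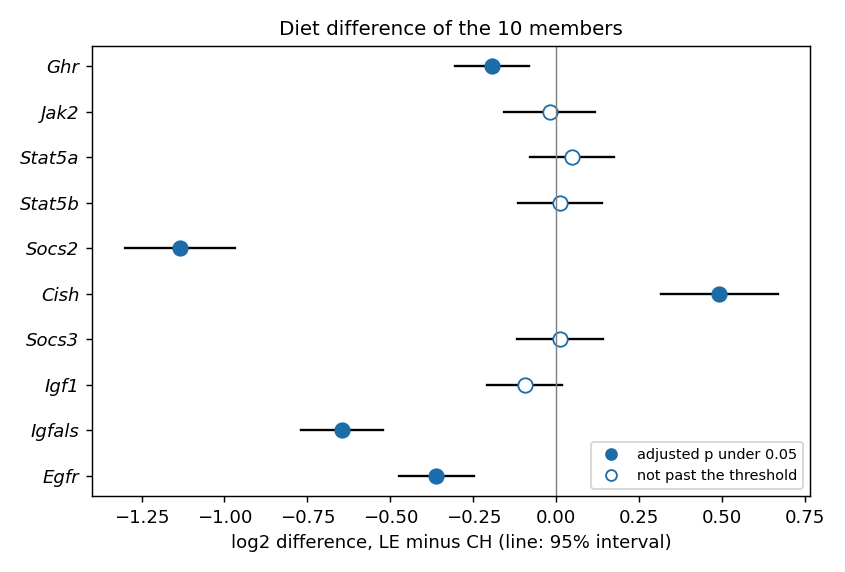
Difference between diets for each of the 10 genes (points, log2 of LE minus CH) with the 95% interval from limma (lines). Filled points passed an adjusted p of 0.05: Socs2, Igfals, Egfr and Ghr lie left of 0 and Cish lies right of it, while the intervals of the other 5 genes include 0.

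The letters to which STAT5 binds can be looked for in the promoters of these genes. RefSeq promoter windows (build GRCm38.p6, 250 bases before to 50 after an annotated start) were at hand for 9 of the 10 genes, 14 windows in all, and not for Socs2. The motif TTCNNNGAA reads the same on both strands and was searched in each window. It was present in 4 of the 14 windows, those of Cish, Igfals and Socs3, and in 8.30% of all 32851 windows of that length. The Cish window held 2 copies, as 0.457% of all windows did with 2 or more. Stretches around each copy are shown because these 3 genes had 3 different outcomes: Cish rose, Igfals fell and Socs3 did not pass the test. Each has the motif in a window, with middle letters that differ between copies. Capitals mark the motif.
Cish, chr9:107296599-107296678, + strand: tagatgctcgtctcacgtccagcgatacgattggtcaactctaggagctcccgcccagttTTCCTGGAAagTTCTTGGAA
Igfals, first start, chr17:24877594-24877653, + strand: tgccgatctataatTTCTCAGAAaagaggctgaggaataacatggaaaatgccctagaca
Igfals, second start, chr17:24878163-24878191, + strand: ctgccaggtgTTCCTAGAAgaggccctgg
Socs3, chr11:117969502-117969530, - strand: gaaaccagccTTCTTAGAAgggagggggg
In Cish the copies begin at bases 1 and 12 counted from the annotated start. In Igfals they begin 236 and 58 bases before the annotated start to which each belongs, and in Socs3 154 bases before it. A match of letters is not a measured binding site. A further Igfals window and the windows of Ghr, Jak2, Stat5a, Stat5b, Igf1 and Egfr did not hold the motif. This says only that these letters are not in these windows.

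The receptor and its kinase moved little. Ghr had log2 levels of 12.79, 12.79 and 12.86 on the LE arrays, against 13.00, 13.00 and 13.02 on the CH arrays. The groups did not overlap, and Ghr was 1.14-fold lower (log2 -0.19, SE 0.05, adjusted p = 0.0394). This is the least firm of the 5 calls: it was lost without any one of CH1, CH2, CH3, LE1 or LE2 (adjusted p 0.0973 to 0.123) and held without LE3 (0.0374). Jak2 had 8.51, 8.54 and 8.63 on the LE arrays, against 8.55, 8.52 and 8.66 on the CH arrays. Its groups overlapped, with a difference of -0.02 (95% interval -0.16 to 0.12, adjusted p = 0.893).

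The 2 STAT5 genes, which lie side by side in the genome and encode closely related factors, did not pass the test. Stat5a had 9.17, 9.11 and 9.20 in LE livers, against 9.16, 9.14 and 9.04 in CH livers. Its difference was 0.05 (interval -0.08 to 0.17, adjusted p = 0.675). Stat5b, the more important form for the male liver pattern in mice, had 10.41, 10.32 and 10.43 in LE livers, against 10.35, 10.34 and 10.43 in CH livers. Its difference was 0.01 (interval -0.12 to 0.14, adjusted p = 0.935), and the groups of both genes overlapped. Because the transcripts are alike, signal from one gene on the probes of the other cannot be told apart here. RNA levels also do not show how much STAT5 was phosphorylated.

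The feedback inhibitors went in 3 ways. Socs2, which encodes part of a ubiquitin ligase that targets the growth hormone receptor, had 9.74, 9.94 and 9.99 in LE livers, against 11.05, 11.01 and 11.01 in CH livers. All LE arrays lay more than 1 log2 unit below all CH arrays, and LE1 was the lowest. Socs2 was 2.20-fold lower (log2 -1.13, SE 0.07, interval -1.30 to -0.97, adjusted p = 4.14e-05), the 20th lowest difference among the 1012 genes called lower. A second Socs2 probe set gave 8.10, 8.26 and 8.21 in LE livers, against 8.89, 9.04 and 8.85 in CH livers. It was lower too, by 1.67-fold (log2 -0.74, SE 0.07, adjusted p = 4.26e-04 over all probe sets), so the probe sets share the direction and differ in size.

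Cish encodes a related SH2 protein, the founding member of the SOCS family, which competes for the docking sites of STAT5. It had 8.02, 8.09 and 8.19 in LE livers, against 7.74, 7.57 and 7.51 in CH livers. The groups did not overlap, with CH1 the highest of its group, and Cish was 1.41-fold higher (log2 0.49, SE 0.08, interval 0.32 to 0.67, adjusted p = 0.00482). So 2 genes that STAT5 is known to induce, both with feedback roles, were called in opposite directions on the same arrays. Socs3, an inhibitor better known for ending interleukin 6 signals through STAT3, had 8.43, 8.29 and 8.35 in LE livers, against 8.38, 8.35 and 8.30 in CH livers. Its groups overlapped and its difference was 0.01 (interval -0.12 to 0.14, adjusted p = 0.936). A second Socs3 probe set also gave 0.01 (SE 0.07, adjusted p = 0.953).

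**Figure D2:**
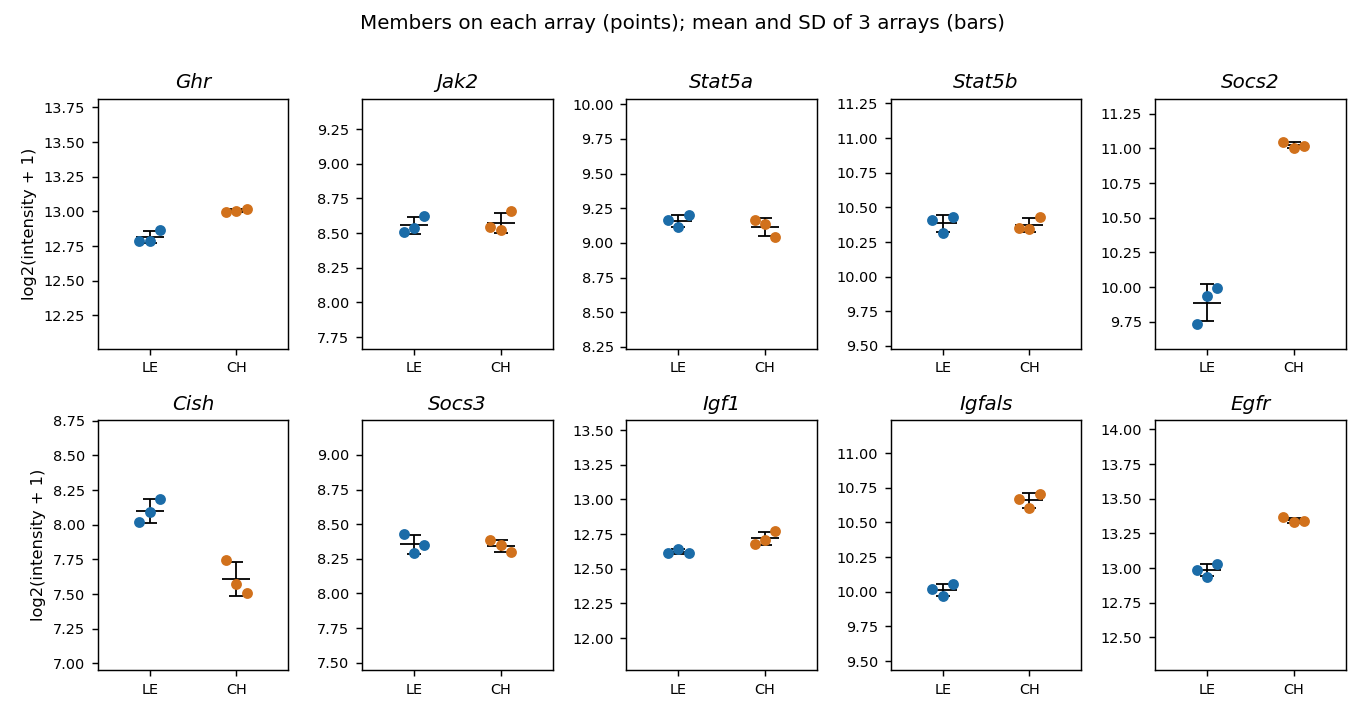
Level of each of the 10 genes on each array, as log2(intensity + 1), with LE left of CH; bars give the mean and SD of 3 arrays, and every panel spans the same range of log2 units. Socs2 and Igfals show the widest gaps between groups, Cish is the gene with LE above CH throughout, and the points of Jak2, Stat5a, Stat5b and Socs3 overlap.

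Igfals and Igf1 encode the secreted outputs of the pathway. Igfals had 10.02, 9.97 and 10.06 in LE livers, against 10.67, 10.60 and 10.71 in CH livers. The groups were far apart for their spread, and Igfals was 1.56-fold lower (log2 -0.65, SE 0.05, interval -0.77 to -0.52, adjusted p = 1.84e-04). Igf1, whose liver product is the main source of IGF1 in blood, had 12.61, 12.64 and 12.61 in LE livers, against 12.68, 12.71 and 12.77 in CH livers. All LE values lay below all CH values, but the difference was small at -0.10 (SE 0.05, interval -0.21 to 0.02) and did not pass (adjusted p = 0.288). The adjusted p of Igf1 was 0.0391 with a limma prior that follows intensity and 0.0461 in a cyberT-like test. Whether Igfals and Igf1 differed from each other in their response was not tested.

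Egfr encodes the receptor for epidermal growth factor, is abundant in hepatocytes, and depends on growth hormone in mouse liver. It had 12.99, 12.94 and 13.03 in LE livers, against 13.37, 13.33 and 13.34 in CH livers. The groups did not overlap, and Egfr was 1.28-fold lower (log2 -0.36, SE 0.05, interval -0.47 to -0.25, adjusted p = 0.00250). In all, the groups did not overlap for 6 of the 10 genes (the 5 called and Igf1), beside 30.6% of all genes tested. Socs2 and Igfals alone of the 10 were both called and changed at least 1.5-fold, beside 2.19% of all genes.

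The samples are bulk liver, so fewer cells of a type and less RNA per cell cannot be told apart. Markers fixed for 6 cell types were read on the same arrays. None of the markers measured was at 0, which does not by itself show that they were detected. Hepatocyte markers summed to 109361 to 111868 intensity units on the LE arrays and 109732 to 110606 on the CH arrays. None of the 7 measured passed limma's test (1 had an unadjusted p below 0.05, and 3 passed in the cyberT-like test), and their median difference was -0.02. The 2 with the smallest p were Tat, a tyrosine aminotransferase (0.12, adjusted p = 0.160), and Apoa1, an apolipoprotein (0.10, adjusted p = 0.209). Macrophage markers summed to 8574 to 8979 on the LE arrays and 6875 to 7286 on the CH arrays. Of 8, 7 were called higher (beside 7.01% of all genes) and 0 lower, with a median of 0.35. The largest differences were those of Cd68 (0.55), the receptor gene Csf1r (0.47), the complement gene C1qa (0.41) and Adgre1 (0.37). Without any 1 array 5 or 6 were called higher: Clec4f, named after its value was seen, lost its call each time, and Vsig4, likewise, without LE2. The part of this shift in the values of the 10 genes was not tested. Markers of sinusoidal endothelium, stellate cells, cholangiocytes, and lymphocytes and neutrophils held 0 calls among 6, 7, 4 and 7 measured genes. At an unadjusted p below 0.05 there were 3, 0, 0 and 1, and in the cyberT-like test 2, 0, 0 and 0. The smallest p-values belonged to Stab2 (adjusted p = 0.151) and Oit3 (0.182), to Reln (0.247) and Des (0.313), to Epcam (0.436) and Sox9 (0.800), and to Nkg7 (0.184) and S100a9 (0.249), in the order of these cell types. Among the cholangiocyte, lymphocyte and neutrophil markers, only Sox9 and Cd3e had mean intensities above the array medians of 158 to 163 in both diets. Low signal limits what the absence of calls can show for these cell types.

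Most other genes of receptor signalling did not pass the test. Of 23 measured of 25 listed, 4 were called higher, 1 lower and 18 not, with a median difference of 0.05. Over all genes tested, 7.01% were called higher and 5.08% lower. Lepr, the leptin receptor and a cytokine receptor that also uses JAK2, had 6.25, 6.09 and 6.19 in LE livers, against 6.42, 6.67 and 6.69 in CH livers, and was 1.33-fold lower (log2 -0.42, SE 0.08, adjusted p = 0.0153). Tyk2, a kinase of the JAK family, was 1.23-fold higher (0.29, SE 0.05, adjusted p = 0.00971). Ptpn1, a phosphatase that acts on JAK2, was 1.21-fold higher (0.27, SE 0.06, adjusted p = 0.0276), and Shc1, an adaptor between receptors and the RAS pathway, 1.20-fold higher (0.26, SE 0.06, adjusted p = 0.0238). The fourth, named after its value was seen, was Sirpa, a membrane glycoprotein found on macrophages too (0.23). The number called higher was 1 without CH1 or CH2 and 2 without CH3, LE2 or LE3. Lepr was not called without LE2 or LE3. Its mean intensities, 71.4 in LE and 95.8 in CH livers, lie below the array medians of 158 to 163. The filter on the dimmest 33.3% of genes leaves it out.

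The rest of the IGF axis, 16 genes, had 1 called higher, 1 lower and 14 not, with a median of -0.01. Its 2 calls among 16 genes are near the share over all genes tested, 12.1%. Igfbp1, a binding protein that restrains IGF1 and is suppressed by insulin, differed the most of these. It had 11.62, 11.57 and 11.66 in LE livers, against 10.02, 10.03 and 10.02 in CH livers, and was 3.02-fold higher (log2 1.59, SE 0.05, adjusted p = 5.64e-07). Igfbp2, another hepatic binding protein, had 11.46, 11.43 and 11.50 in LE livers, against 11.87, 11.83 and 11.80 in CH livers, and was 1.29-fold lower (-0.37, SE 0.05, adjusted p = 0.00234). Igfbp3, the usual partner of IGFALS in plasma and named here after its value was seen, differed by -0.16 (SE 0.06, adjusted p = 0.147). The receptor gene Igf1r, likewise, differed by 0.03 (adjusted p = 0.846).

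Around Egfr, 15 measured genes of 16 listed had 3 called higher, 1 lower and 11 not, with a median of 0.02. The shares over all genes were 7.01% higher and 5.08% lower. Tgfa, a ligand of the receptor, had 9.70, 9.60 and 9.72 in LE livers, against 9.42, 9.20 and 9.28 in CH livers, 1.29-fold higher (log2 0.37, SE 0.07, adjusted p = 0.0116). Cblb, a ubiquitin ligase that ends receptor signalling, was 1.27-fold higher (0.34, SE 0.06, adjusted p = 0.0109), and the adaptor Grb7 1.18-fold higher (0.23, SE 0.05, adjusted p = 0.0151). Socs4, a SOCS protein linked to turnover of the receptor, was 1.17-fold lower (-0.23, SE 0.06, adjusted p = 0.0372). Its call ended when CH1, CH2, CH3, LE1 or LE3 was left out. Tgfa was not called without LE3 (adjusted p = 0.0509), nor Grb7 without any 1 CH array.

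Transcription factors listed as regulated by growth hormone in liver changed in both directions. Of 11 measured, 4 were called higher (beside 7.01% of all genes), 3 lower (beside 5.08%) and 4 not, with a median of 0.11. Onecut1, a hepatocyte factor induced by growth hormone in rodents, had 9.48, 9.46 and 9.57 in LE livers, against 10.27, 10.18 and 10.26 in CH livers, and was 1.66-fold lower (log2 -0.73, SE 0.05, adjusted p = 1.09e-04). Bcl6, a repressor that is higher in male mouse liver and competes with STAT5 for its sites, had 10.17, 10.18 and 10.32 in LE livers, against 10.71, 10.62 and 10.75 in CH livers. It was 1.38-fold lower (-0.47, SE 0.06, adjusted p = 0.00232). Rarb, a retinoic acid receptor, was 1.54-fold higher (0.62, SE 0.07, adjusted p = 7.19e-04), and Trim24, a cofactor that is more abundant in female mouse liver, 1.25-fold higher (0.33, SE 0.05, adjusted p = 0.00678). Foxa2 (0.24), Tox (0.21) and Cebpa (-0.23), named after their values were seen, made up the rest of the calls. The 4 not called, likewise named after their values were seen, were Nr1i3 (-0.18), Cebpb (0.18), Hnf4a (0.11) and Cux2 (0.005). The number called higher was 2 without any 1 of CH1, CH2, CH3, LE2 or LE3, since Foxa2 and Tox lost their calls. The call of Cebpa was lost without CH1 or CH3 (adjusted p up to 0.0721).

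**Figure D3:**
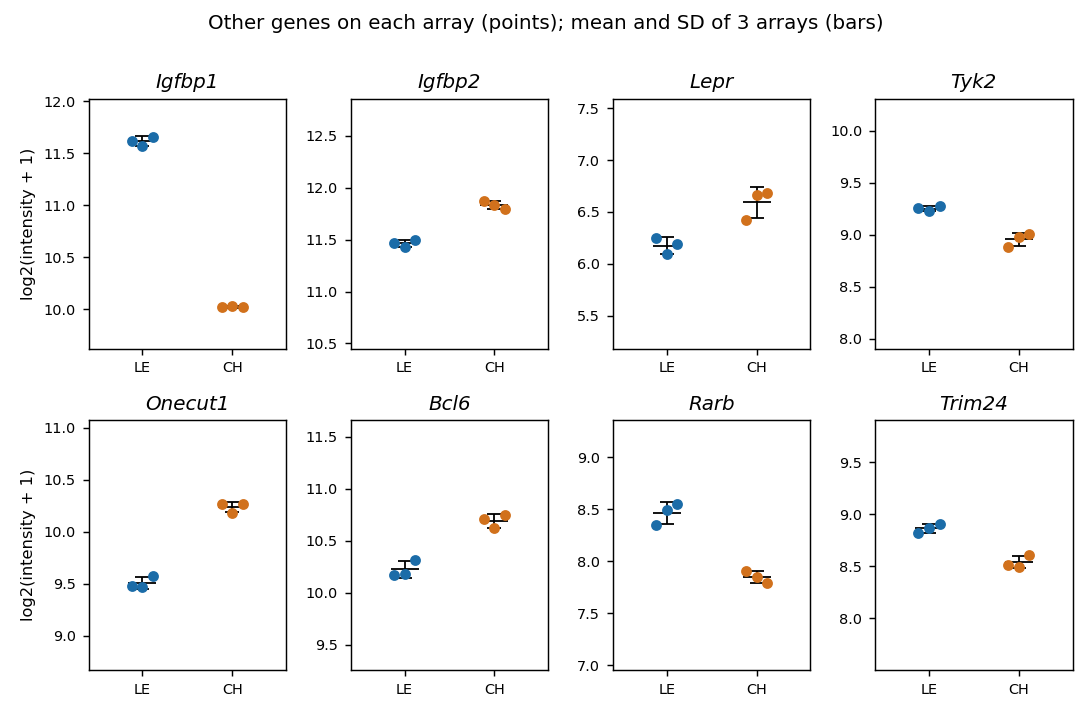
Levels of 8 other genes of the pathway on each array, as log2(intensity + 1), with LE left of CH; bars give the mean and SD of 3 arrays, and all panels span the same range. The LE values of Igfbp1, Tyk2, Rarb and Trim24 lie above all CH values, and those of Igfbp2, Lepr, Onecut1 and Bcl6 lie below.

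Among sex-biased genes of liver, which the growth hormone pattern maintains in mice, 10 male-biased genes were called lower and 4 female-biased genes higher. These lists were drawn up with their earlier results known, so their direction is no independent evidence. Of 13 male-biased genes measured of 15 listed, 10 were called lower (beside 5.08% of all genes) and 3 not, with a median of -0.58. Moxd1, a monooxygenase gene, had 7.09, 6.59 and 7.20 in LE livers, against 8.89, 8.63 and 8.74 in CH livers. Hsd3b5, a steroid dehydrogenase gene, had 11.88, 11.89 and 11.85 in LE livers, against 12.99, 13.00 and 12.99 in CH livers. The differences of Mup21, a pheromone carrier, and Ugt2b1, a glucuronosyltransferase, were -1.08 and -0.69. The 3 not called, named after their values were seen, were Ces2e (-0.18), Cyp2d9 (-0.10) and Cyp4a12a (-0.02). Of 9 female-biased genes measured of 13 listed, 4 were called higher (beside 7.01% of all genes) and 5 not, with a median of 0.13. Abcd2, a peroxisomal transporter, had 9.20, 9.10 and 9.22 in LE livers, against 7.27, 7.22 and 7.17 in CH livers. Cyp17a1, a steroid hydroxylase, had 9.89, 9.96 and 9.90 in LE livers, against 8.03, 7.99 and 8.11 in CH livers. The differences of the cytochrome genes Cyp2b9 and Cyp2b10 were 1.13 and 0.26, the second lost without any 1 array but LE2. Likewise named after their values were seen, the 5 not called were Sult3a1 (0.13), Hao2 (0.10), Acot3 (0.04), Cyp3a44 (0.03) and A1bg (0.02). Of these, Sult3a1, Hao2, A1bg and Acot3 had mean intensities of 11.8, 55.7, 54.3 and 109 in LE livers. Their means in both diets lay below the array medians of 158 to 163, so the absence of a call says little. Cyp2b9, though called, had a mean intensity of 80.9 in CH livers. Hsd3b5, Mup21, Ugt2b1 and the Cyp2b genes belong to families of close copies that can bind the same probes.

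Beside the Socs3 result, the interleukin 6 and STAT3 response had 3 of 14 genes called higher, 1 lower and 10 not, with a median of -0.02. Among all genes tested, 7.01% were called higher and 5.08% lower. Lcn2, an iron-siderophore carrier, had 9.43, 9.53 and 9.54 in LE livers, against 8.47, 8.44 and 8.60 in CH livers, 1.99-fold higher (log2 0.99, SE 0.06, adjusted p = 3.81e-05). Saa1, an acute phase apolipoprotein with close copies, had 6.83, 7.00 and 7.07 in LE livers, against 7.55, 7.73 and 7.52 in CH livers, 1.55-fold lower (-0.63, SE 0.08, adjusted p = 0.00227). Orm2, an acute phase glycoprotein, was 1.26-fold higher (0.33, SE 0.06, adjusted p = 0.0114), and the receptor gene Il6ra 1.21-fold higher (0.27, SE 0.06, adjusted p = 0.0308). The call of Il6ra was lost without any 1 array but LE1.

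**Figure D4:**
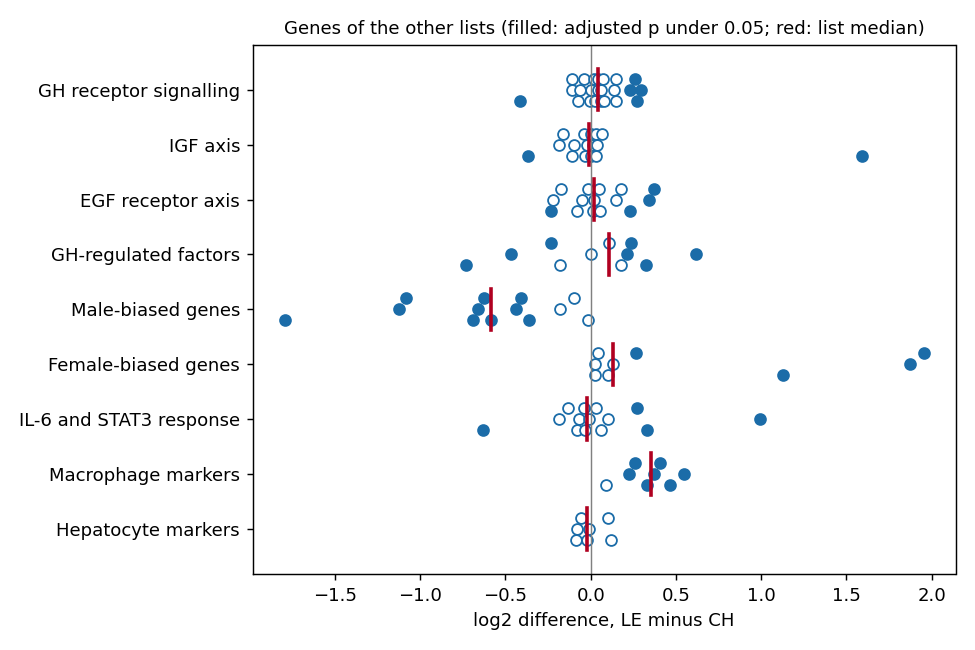
Difference between diets (log2 of LE minus CH) for each measured gene of the 7 pathway lists and of the macrophage and hepatocyte markers; filled points passed an adjusted p of 0.05 and red lines give the list medians. The male-biased genes have a median of -0.58 and the macrophage markers one of 0.35, while the medians of the other lists lie between -0.02 and 0.13.

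The genes whose profile over the 6 arrays was closest to that of Socs2, by Euclidean distance of log2 levels centred on each gene's mean, were 9130409I23Rik (distance 0.124), the phospho-lyase gene Etnppl (0.139) and the calpain gene Capn8 (0.157). All 3 share the diet difference with Socs2 by construction of the measure. Etnppl had 10.44, 10.54 and 10.67 in LE livers, against 11.60, 11.59 and 11.70 in CH livers, 2.11-fold lower (log2 -1.08, SE 0.07). The differences of 9130409I23Rik and Capn8 were -1.17 and -1.19.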

How the data were processed

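Affymetrix Mouse Gene 1.0 ST arrays measured the liver RNA of 6 samples. The authors deposited linear probe set intensities, with array medians of 158 to 163. How background and arrays were corrected is not given in the sources used here. Per the series design text, the authors tested differences with Partek and cyberT. Of 35556 probe sets, 21789 carried 1 gene symbol, 1621 several and 12146 none in the platform annotation. Single-gene probe sets were used, the brightest for each of 999 genes with more than 1, and 21698 matched RefSeq by gene identifier. The authors' intensities were taken as log2(intensity + 1), and a two-sided limma 3.58.1 test under R 4.3.3 compared LE with CH. P-values were adjusted by Benjamini-Hochberg over 19938 genes, at a threshold of 0.05. Summaries were made in Python 3.11.15 with pandas 2.3.3, and figures with matplotlib 3.10.9. The fit was tested on simulated data.

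Pearson's r across genes was 0.9969 to 0.9978 within LE, 0.9965 to 0.9973 within CH and 0.9898 to 0.9911 between the groups. The labels call the arrays biological replicates without tying them to single animals, so p-values measure the spread between arrays, which may be partly technical. An exact permutation test of 3 against 3 arrays cannot go below 0.1. Adding 1 before the log slightly shrinks the differences of the lowest intensities.

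The members and lists were chosen with earlier results of these data known, so no set test was run, and lists are described by counts and medians. Named genes are all members, up to 4 called genes per list with the largest difference (where none was called, the 2 with the smallest p), and the 3 profiles nearest to the called member with the largest difference. Alternatives were the replicate number as a block, quantile normalization, median centring, a filter on the dimmest 33.3% of genes, probe sets averaged per gene, an intensity trend with a robust prior, a cyberT-like regularised test (window of 101 genes, prior weight 10), pseudocounts of 16 and none, a 1.5-fold limit on the counts of members and of all genes, other probe sets and leaving out each array.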

Additional observations from a re-analysis of the deposited data

How the results depend on the processing

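The calls of Socs2, Igfals, Egfr and Cish held in every alternative run on single genes, with differences of -1.19 to -0.74, -0.67 to -0.62, -0.38 to -0.34 and 0.44 to 0.56. Same-numbered arrays of the diets had r of deviations of -0.0214, -0.0967 and 0.160, and other pairs had -0.228 to 0.246. With 3 arrays per group these values cannot tell whether the numbers pair the arrays. Of the LE arrays, LE3 correlated best with its own number and LE1 and LE2 did not. With the replicate block Ghr was at -0.19 (adjusted p = 0.0830), and the other 4 calls held, while calls over all genes numbered 1688 rather than 2410. Ghr ranged from -0.22 to -0.18 when 1 array was left out and passed in 9 of 15 alternatives (adjusted p 3.38e-05 to 0.123). Igf1, at -0.10, passed with the intensity trend (0.0391) and in the cyberT-like test (0.0461). Near 0, Stat5b was at -0.0036 and Socs3 at -0.0125 after quantile normalization. Without 1 array Jak2 ranged from -0.0540 to 0.0220, Stat5b from -0.0119 to 0.0460 and Socs3 from -0.0249 to 0.0432. The causes were not tested.

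Members called lower numbered 3 or 4 without 1 array, and with the 1.5-fold limit 2 were lower and 0 higher. Over all genes, 1398 higher and 1012 lower became 316 and 120 with that limit. The lower count was 657 with the replicate block, 1560 with the intensity trend, 1678 in the cyberT-like test and 525 to 893 without 1 array.

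Counts in the lists changed as follows. In receptor signalling, the block gave 2 higher and 0 lower, leaving out dim genes 0 lower, and leaving out 1 array 1 to 4 higher and 0 to 1 lower. In the IGF axis, 2 were lower after quantile normalization, after centring and in the cyberT-like test. In the EGF receptor axis, 0 were lower with the block, after centring and in the range of 0 to 1 without 1 array, and 5 were higher without dim genes. Among transcription factors 2 were higher with the block and 2 to 3 without 1 array. In the interleukin 6 list, 2 were lower without dim genes or with the pseudocount of 16, and 3 with the intensity trend or in the cyberT-like test. Hepatocyte markers had 2 higher and 2 lower with the trend, and 2 higher and 1 lower in the cyberT-like test. Endothelial markers had 1 lower after quantile normalization and 2 with the trend or in the cyberT-like test. Of lymphocyte and neutrophil markers, 0 to 1 were higher without 1 array. The number of arrays limits the precision.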

Other observations

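Some genes were looked at after their values were seen, all outside the lists but Irs2, which is in the receptor signalling list. Lifr, a receptor of the interleukin 6 family that signals through STAT3, had log2 levels of 11.92, 11.91 and 12.00 in LE livers, against 12.46, 12.45 and 12.48 in CH livers, 1.43-fold lower (-0.52, SE 0.05). Esr1, the oestrogen receptor alpha gene, was 1.18-fold lower (-0.24, SE 0.05, limma adjusted p = 0.0164). Fgf21, a fasting hormone known in mice to dampen growth hormone signalling, had 7.13, 7.14 and 7.13 in LE livers, against 6.89, 6.97 and 6.93 in CH livers, a difference of 0.20 (SE 0.05, limma adjusted p = 0.0296). The mean intensities of Fgf21, 139 in LE and 121 in CH livers, lie below the array medians of 158 to 163. Whether Fgf21 bears on the 10 genes was not tested.

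Igfbp1 is a known target of FOXO1, as are Pck1, G6pc and Irs2. These had differences of 0.00 (limma adjusted p = 0.994), -0.13 (0.170) and 0.08 (0.364), beside 1.59 for Igfbp1. Pck1, G6pc and Irs2 were picked with their values known and are not a full list of FOXO1 targets. Whether FOXO1 activity differed between the diets was not tested. Ppargc1a, a coactivator of fasting genes, had 9.56, 9.62 and 9.78 in LE livers, against 8.71, 8.62 and 8.74 in CH livers, 1.95-fold higher (0.97, SE 0.07). Gadd45g, a growth arrest gene, had 8.43, 8.46 and 8.50 in LE livers, against 7.13, 7.40 and 7.32 in CH livers, 2.27-fold higher (1.18, SE 0.07).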
